A study of Mus musculus with 6 samples.

Results

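Scavenger receptors are the cell-surface and endosomal proteins with which macrophages bind and take up modified lipoproteins, dying cells and microbes. Class A receptors such as Marco and Msr1 carry collagen-like stalks, class B receptors such as Cd36 and Scarb1 pass the membrane at both ends and handle lipids, and further classes hold unrelated proteins grouped by the ligands they bind. Marco is known as a receptor of restricted macrophage subsets that is induced by microbial stimuli, while Cd68 is used as a general macrophage marker. The genes described here are 10 scavenger receptors and related proteins, Marco, Msr1, Colec12, Cd36, Scarb1, Scarb2, Cd68, Stab1, Cd5l and Cxcl16. They were chosen by symbol from the 35434 rows of the deposited gene table, and all 10 were found there.

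The samples were bone marrow-derived macrophages (BMDMs) from the femurs of C57BL/6 mice, grown for 7 days with 10 ng/mL of M-CSF, the growth factor that drives macrophage differentiation. The 3 Ctrl libraries were not treated with ZA, and the 3 ZA libraries were taken 12 h after stimulation with zoledronic acid (ZA), a nitrogen-containing bisphosphonate used against bone resorption. Wild-type C57BL/6 mice were obtained for the study as females of 6 weeks, without a statement that the marrow donors were among them, and the ZA concentration behind these libraries is not given in the sources used here. Levels are FPKM, the fragments of a gene divided by its length and by the total of the library, so that levels of different genes can be compared. Library totals were between 41230600 and 42155808 fragments. The labels number the libraries 1 to 3 in each group without saying that they came from separate cultures, so p-values measure the spread between these libraries, which may be technical. In bulk RNA, fewer cells that carry a transcript and less transcript per cell cannot be told apart.

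The labelled cell type was checked against marker genes. All 8 macrophage markers had a mean FPKM of at least 1, with a summed FPKM of 22216 to 26157 in Ctrl and 23095 to 26586 in ZA. Lyz2 made up most of this sum, at 20472 to 24406 FPKM in Ctrl and 21272 to 24669 in ZA. The sum therefore says little about the other macrophage markers. Of the 8 macrophage markers, Adgre1 and Csf1r were higher in every ZA library than in any Ctrl library, and neither had an adjusted p under 0.05. Of 8 markers of neutrophils and myeloid progenitors, Ngp, Mpo and Elane were lower in every ZA library than in any Ctrl library. None of them had an adjusted p under 0.05, and Ly6g was at 0 in all libraries. Over all genes tested, the groups did not overlap for 11.4% that were higher and 6.76% that were lower in ZA. The summed FPKM of these 8 markers lay between 32.5 and 47.5 in Ctrl libraries and between 29.4 and 34.4 in ZA libraries. The summed markers were 2.324 to 3.01 in Ctrl and 2.06 to 2.319 in ZA for B cells (4 of 4 genes in the table), and 0.235 to 0.291 in Ctrl and 0.0955 to 0.213 in ZA for T cells (3 of 4 genes). Sums overlapped between the groups for stromal cells (18.2 to 32.7 in Ctrl and 16.3 to 23.5 in ZA), endothelial cells (6.44 to 7.75 and 6.04 to 6.68), dendritic cells (0.292 to 0.347 and 0.307 to 0.459) and erythroid cells (0.423 to 2.66 and 0.777 to 1.94). Still, all 5 stromal markers (Col1a1, Col1a2, Col3a1, Dcn and Pdgfra) had lower means in ZA. Each fell from library 1 to library 3 in both groups, and each ZA library was below the Ctrl library of its number. Dcn had 14.7, 11.8 and 9.02 FPKM in Ctrl and 9.95, 9.03 and 8.05 in ZA (unadjusted p = 0.0471, adjusted p = 0.398 from limma). Among the markers of these other cell types, Cd3g and Cdh5 were lower, and Kdr and Zbtb46 were higher, in every ZA library than in any Ctrl library. Cd3g (2 to 10 fragments) and Zbtb46 (5 to 15 fragments) were near the floor. Cd3g, Zbtb46 and Cdh5 averaged under 1 FPKM and were not tested, and Kdr had an adjusted p of 0.621 from limma. The part of these differences in the results on scavenger receptors was not tested.

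The question of the comparison was which scavenger receptor transcripts differ between ZA-treated and Ctrl BMDMs. Marco was the member with the largest log2 difference, at 2.01 ± 0.290 FPKM in ZA against 1.13 ± 0.422 in Ctrl (SD, n = 3 each), and Cd36 was the one with the smallest p among members lower in ZA, with a mean that differed from Ctrl by -8.43%. None of the 10 members had an adjusted p under 0.05. Msr1, Colec12, Scarb1, Scarb2, Cd68, Stab1, Cd5l and Cxcl16 had log2 differences between 0.01 and 0.14 in size, in either direction.

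For each of 9800 genes whose FPKM averaged 1 or more, limma tested the difference in log2(FPKM + 1), and p-values were adjusted over all these genes by the Benjamini-Hochberg method. All 10 members passed that filter on level. At an adjusted p under 0.05, 0 of 10 members were called, beside 36 of all genes tested (0.367%). The limma voom fit on recovered fragments also called 0 of the 10, with adjusted p of 0.0642 for Cd36 and 0.0762 for Marco. At an unadjusted p under 0.05, 1 member was higher (Marco) and 1 was lower (Cd36), beside 7.50% of all genes that were higher and 4.85% that were lower. Scaling moved the balance over all genes, from 735 higher and 475 lower as deposited to 508 and 664 after centring on the median, and 574 and 589 after quantile normalization. The values of ZA and Ctrl did not overlap for 4 members, of which 3 were higher (Marco, Cd68 and Cxcl16) and 1 was lower (Cd36), beside 11.4% of all genes that were higher and 6.76% that were lower. The median log2 difference was 0.00 over the members and 0.01 over all genes tested, and its median size was 0.06 and 0.04, respectively.

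The 10 transcripts spanned a wide range of levels. Averaged over the 6 libraries, Cd68 stood highest at 1340 FPKM, 854 times the mean of Marco, which stood lowest at 1.57 FPKM. The order below Cd68 was Stab1 (168 FPKM), Cd36 (162), Cxcl16 (139), Cd5l (78.2), Scarb2 (52.0), Scarb1 (44.4), Colec12 (19.1), Msr1 (18.0) and Marco. Of the neighbours in this order, Stab1 and Cd36 overlapped, with Stab1 the higher in 5 of 6 libraries but Cd36 the higher by its Ctrl mean (169.2 against 168.5 FPKM), and Colec12 and Msr1 overlapped, with Colec12 the higher in 4 of 6. The other neighbours kept their order without overlap of their ranges over the 6 libraries. Marco lay above only 6.77% of the genes tested, whereas Cd68 lay above 99.7%.

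**Figure D1:**
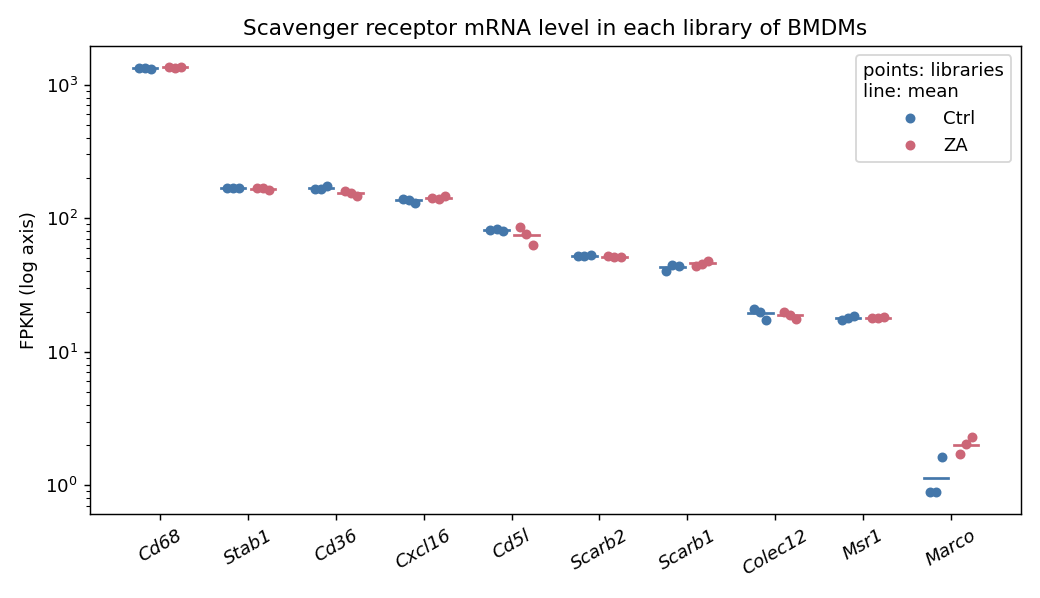
FPKM of each member (log axis) in the 3 Ctrl and 3 ZA libraries, ordered by mean level, with points for libraries and short lines for group means. Cd68 sits near 1340 and Marco near 1.57, and Marco is the member whose groups stand visibly apart on this axis.

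Marco, the class A receptor that binds bacteria and inhaled particles, had 0.885, 0.887 and 1.62 FPKM in Ctrl 1, 2 and 3. In ZA 1, 2 and 3 it had 1.71, 2.02 and 2.29 FPKM. All ZA libraries were above all Ctrl libraries, and Ctrl 3 lay closer to ZA 1 than to the other Ctrl libraries. The mean was 77.9% higher in ZA. On the log2(FPKM + 1) scale, which understates changes at such low levels, ZA exceeded Ctrl by 0.51 (95% confidence interval 0.21 to 0.82, standard error 0.13, unadjusted p = 0.00446, adjusted p = 0.178 from limma). Marco ranked 244 of the 9800 genes by p. Without Ctrl 3 the difference was 0.67 with an adjusted p of 0.0646, and leaving out any other library gave 0.43 to 0.58. With a pseudocount of 0.1 in place of 1 it was 0.82, and from voom on fragments it was 0.88 (adjusted p = 0.0762).

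The low level of Marco made its counting error large enough to compare with the spread of libraries. Its FPKM stood for 71, 71 and 130 fragments in Ctrl and for 136, 162 and 186 fragments in ZA. The exact 95% Poisson interval, which covers counting error only, was 0.691 to 1.12 FPKM in Ctrl 1 and 0.693 to 1.12 in Ctrl 2. In Ctrl 3 it was 1.35 to 1.92 FPKM, apart from those of the other Ctrl libraries and overlapping that of ZA 1 (1.44 to 2.03). All ZA intervals, with ZA 2 at 1.72 to 2.36 and ZA 3 at 1.97 to 2.65, lay above those of Ctrl 1 and Ctrl 2, and that of ZA 3 also lay above Ctrl 3. The difference between Ctrl 3 and the other Ctrl libraries was therefore larger than counting error.

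**Figure D2:**
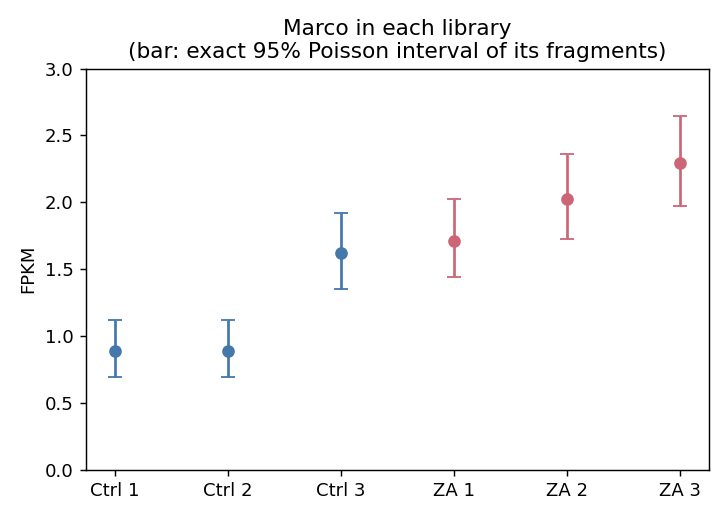
Marco FPKM in each of the 6 libraries, with the exact 95% Poisson interval of its fragments as bars. The interval of Ctrl 3 (1.35 to 1.92) overlaps that of ZA 1 (1.44 to 2.03) and not those of Ctrl 1 and Ctrl 2.

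Msr1, the scavenger receptor A that takes up acetylated and oxidized LDL, had 17.3, 18.0 and 18.4 FPKM in Ctrl and 17.8, 18.0 and 18.3 FPKM in ZA. The groups overlapped fully, and the log2 difference of 0.01 had a 95% confidence interval of -0.06 to 0.08. Its sign turned when libraries were centred on the median (-0.0016), after quantile normalization (-0.0044) and without Ctrl 1 (-0.01). Because Marco and Msr1 belong to one receptor class, Marco was also expressed relative to Msr1 within each library, a ratio that does not depend on scaling between libraries. As a log2 ratio to Msr1, Marco stood at -4.29, -4.34 and -3.51 in the Ctrl libraries against -3.38, -3.15 and -2.996 in ZA. Its mean was 0.87 higher in ZA, with no overlap of the groups (exact permutation test, two-sided, p = 0.1, the smallest that 3 against 3 libraries can give).

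Colec12, a class A member of the collectin family that binds carbohydrates and oxidized LDL, had 21.1, 19.7 and 17.4 FPKM in Ctrl. In ZA it had 19.8, 18.8 and 17.5 FPKM, so that the groups overlapped and library 3 was the lowest in each. Its log2 difference was -0.05 (95% confidence interval -0.20 to 0.11), and it turned to 0.01 without Ctrl 1.

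Of the class B receptors, Cd36, which binds long-chain fatty acids, oxidized LDL and thrombospondin, had 167 FPKM in Ctrl 1, 167 in Ctrl 2 and 174 in Ctrl 3. In ZA 1, 2 and 3 it had 161, 156 and 148 FPKM. Every ZA library was below every Ctrl library, and the means were 155 ± 6.58 in ZA and 169 ± 3.88 in Ctrl (SD, n = 3 each). The log2 difference was -0.13 (standard error 0.03, 95% confidence interval -0.20 to -0.05, unadjusted p = 0.00534, adjusted p = 0.194 from limma). It was between -0.16 and -0.09 when each library was left out in turn. With at least 25303 fragments in each library, counting error was small for Cd36.

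Scarb1, the receptor that exchanges cholesterol with HDL, had 40.4, 44.8 and 43.9 FPKM in Ctrl and 44.2, 45.5 and 47.9 in ZA. Ctrl 2 lay above ZA 1, so that the groups overlapped, and the log2 difference was 0.09 (95% confidence interval -0.01 to 0.19, adjusted p = 0.453 from limma). Without Ctrl 1 it was 0.05, and leaving out any other library gave up to 0.12. Scarb2, also known as LIMP-2, is a lysosomal membrane protein that carries beta-glucocerebrosidase to the lysosome. It had 52.2, 51.8 and 53.2 FPKM in Ctrl and 51.9, 51.4 and 51.5 in ZA, with overlapping groups and a log2 difference of -0.02 (95% confidence interval -0.08 to 0.03). A difference between the class B receptors was not tested.

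Cd68, the heavily glycosylated class D protein of endosomes and lysosomes, had 1338, 1340 and 1318 FPKM in Ctrl and 1351, 1343 and 1350 FPKM in ZA. The groups did not overlap, but the mean differed by only 1.21%, and the log2 difference of 0.02 (95% confidence interval -0.02 to 0.06) did not pass the test (adjusted p = 0.736 from limma). Stab1, the class H receptor stabilin-1 that takes up modified LDL and extracellular matrix fragments, had 168, 169 and 169 FPKM in Ctrl and 169, 167 and 164 in ZA. Its groups overlapped, and the log2 difference was -0.02 (95% confidence interval -0.06 to 0.03).

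Cd5l is not a membrane receptor but a secreted protein of the scavenger receptor cysteine-rich family, known to promote macrophage survival. It had 82.1, 82.7 and 80.3 FPKM in Ctrl and 85.6, 75.8 and 62.9 in ZA. ZA 1 was the highest and ZA 3 the lowest of the 6 libraries, and the SD was 11.4 FPKM in ZA against 1.24 in Ctrl. The log2 difference of -0.14 was larger than that of Cd36 in size, but its interval was wider (-0.35 to 0.07, adjusted p = 0.583 from limma). Without ZA 3 it was -0.02 and without ZA 1 it was -0.24.

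Cxcl16, a membrane-bound chemokine that also takes up oxidized LDL as the class G receptor SR-PSOX, had 140, 138 and 130 FPKM in Ctrl. In ZA it had 141, 140 and 146 FPKM, all above the Ctrl libraries, with ZA 2 (139.7) close to Ctrl 1 (139.5). The log2 difference was 0.06 (95% confidence interval -0.01 to 0.14, adjusted p = 0.453 from limma). It was 0.04 without Ctrl 3 and up to 0.08 when another library was left out.

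**Figure D3:**
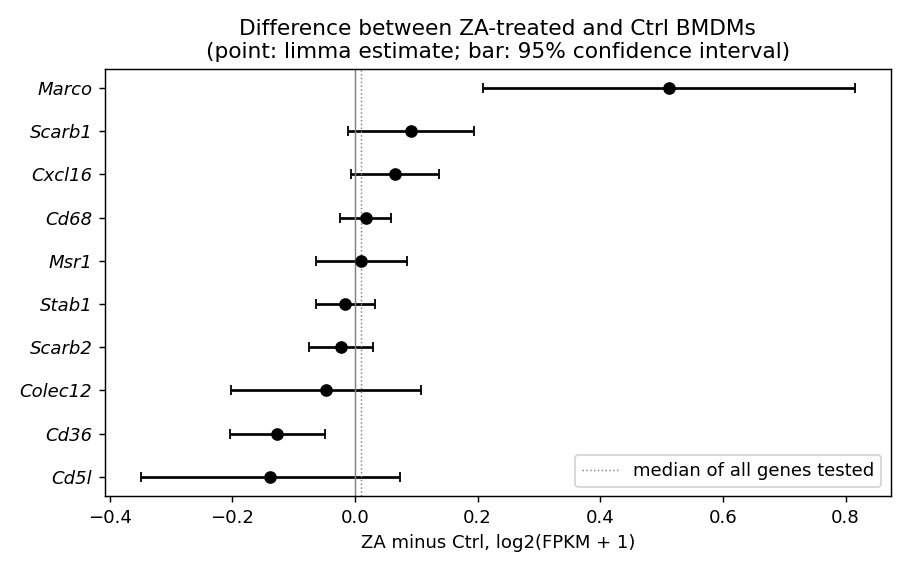
Difference between ZA and Ctrl for each member on the log2(FPKM + 1) scale, with the limma estimate as a point and its 95% confidence interval as a bar, and the median of all genes tested as a dotted line. The interval lies above 0 for Marco (0.21 to 0.82) and below 0 for Cd36 (-0.20 to -0.05), before adjustment over all genes, and includes 0 for the other 8.

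Genes that work beside these members were described in 4 lists. The lists were chosen with earlier results of these data known, so their counts beside all genes are a description only. Of 18 other scavenger receptors and pattern receptors, 12 were under the filter on level in these cells, among them Cd163, Olr1 and Stab2. Of the 6 tested, 0 had an adjusted p under 0.05 (0.367% of all genes tested). At an unadjusted p under 0.05, 1 was higher (7.50% of all genes) and 2 were lower (4.85% of all genes), and the median log2 difference was -0.01. Cd14, the co-receptor for lipopolysaccharide, had 206, 210 and 208 FPKM in Ctrl and 210, 229 and 239 in ZA, a log2 difference of 0.12 (adjusted p = 0.332 from limma). Clec7a, the beta-glucan receptor dectin-1, had 270, 275 and 280 FPKM in Ctrl and 257, 253 and 246 in ZA, a log2 difference of -0.12 (adjusted p = 0.0942). Cd44, the hyaluronan receptor, was 43.3 ± 0.810 FPKM in Ctrl and 40.6 ± 1.41 in ZA (SD, n = 3 each, adjusted p = 0.301).

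Partners of single members, such as sheddases and co-receptors, had log2 differences between -0.08 and 0.13. Of 14 symbols 13 were in the table, and of the 10 partners tested, 0 had an adjusted p under 0.05. Among these 10, 2 were higher and 1 was lower at an unadjusted p under 0.05, beside 7.50% and 4.85% of all genes, and the median log2 difference was 0.03. Adam17, the protease that can shed Cxcl16, was 71.3 ± 1.56 FPKM in Ctrl and 76.2 ± 1.18 in ZA (SD, n = 3 each, adjusted p = 0.203 from limma). Tlr2, which signals together with Cd36 and Marco, was 36.2 ± 1.18 FPKM in Ctrl and 39.8 ± 1.92 in ZA (adjusted p = 0.247). Cd9, a tetraspanin found with Cd36, was 477 ± 10.01 FPKM in Ctrl and 452 ± 12.6 in ZA (adjusted p = 0.304).

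For the clearance of dying cells, 16 of 20 genes were tested (Lrp1 stands in this list and among the other scavenger receptors), of which 0 had an adjusted p under 0.05. An unadjusted p under 0.05 was found for 2 that were higher and 3 that were lower, beside 7.50% and 4.85% of all genes. Itgav and Itgb3, the subunits of an integrin that works with Cd36 in uptake of apoptotic cells, had log2 differences of -0.13 and -0.22 (adjusted p = 0.203 and 0.269 from limma). C1qa, a complement subunit that marks dying cells for uptake, was 734 ± 5.35 FPKM in Ctrl and 785 ± 34.8 in ZA (adjusted p = 0.278). The median log2 difference of this list was -0.04.

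Genes that handle lipid before and after uptake were the list with a called gene. Of 17 tested, 1 fell at an adjusted p under 0.05, beside 0.367% of all genes called in either direction. The unadjusted p was under 0.05 for 1 that was higher and 5 that were lower, beside 7.50% and 4.85% of all genes, and the median log2 difference was -0.03. Lpl, the lipoprotein lipase that releases fatty acids taken up through Cd36, had 852, 844 and 859 FPKM in Ctrl and 786, 776 and 760 in ZA. Its log2 difference was -0.14 ± 0.02 (standard error), with an adjusted p of 0.0487 from limma that was under 0.05 in 6 of 14 alternative settings, which were read for Lpl after its call was seen. The cholesterol exporters Abca1 and Abcg1 had log2 differences of -0.15 and -0.11 (adjusted p = 0.170 and 0.203), and neither overlapped between the groups. In this list 5 of 17 genes were lower without overlap and 1 was higher, beside 6.76% and 11.4% of all genes tested.

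**Figure D4:**
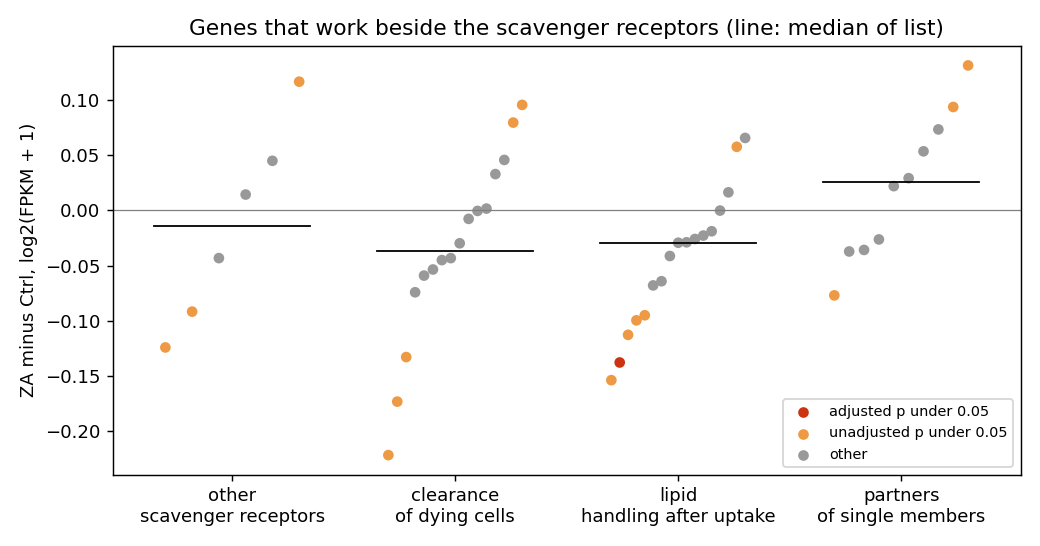
Difference between ZA and Ctrl on the log2(FPKM + 1) scale for each gene tested in the 4 lists, with the list median as a line and colour for the test. The 1 gene at an adjusted p under 0.05 is Lpl, at -0.14, and the list medians lie between -0.04 and 0.03.

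The 5 genes tested whose profile over the 6 libraries was most like that of Marco were found by the root mean square difference of centred log2(FPKM + 1) values. They were Tgtp2 (0.097), Cbr2 (0.116), Slc13a3 (0.125), Ifi27l2a (0.128) and Ifi47 (0.128). Tgtp2, Ifi27l2a and Ifi47 are known as interferon-induced genes, and reads of Tgtp2 can be shared with its near-identical neighbour Tgtp1. Tgtp2 had 1.46, 1.67 and 2.30 FPKM in Ctrl and 2.12, 2.61 and 3.01 in ZA, with overlapping groups. Ifi47 also overlapped, at 19.9, 22.3 and 25.9 FPKM in Ctrl and 24.1, 29.4 and 34.6 in ZA, while Ifi27l2a did not, at 49.7, 53.6 and 59.8 FPKM in Ctrl and 60.2, 69.9 and 83.9 in ZA. Cbr2, a carbonyl reductase, had 6.58, 6.05 and 8.53 FPKM in Ctrl and 10.1, 9.97 and 9.53 in ZA. Slc13a3, a dicarboxylate transporter, had 1.75, 1.78 and 2.10 FPKM in Ctrl and 2.64, 2.98 and 2.91 in ZA, and neither Cbr2 nor Slc13a3 overlapped between the groups. In all 5 genes Ctrl 3 was the highest of the Ctrl libraries, as it was for Marco. The measure selects for this and for higher values in ZA, so no test of these genes is given.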

How the data were processed

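RNA of 3 Ctrl and 3 ZA-treated BMDM samples was sequenced as 150 bp paired-end reads, with a VAHTS kit per the methods and also a SMARTER kit per the labels. The authors deposited FPKM values for each gene and library, which are neither counts nor scaled further between libraries. The build mm9 comes from the submitters' processing notes, and the aligner, counter and annotation are not given in the sources used here. No coordinates are given, since the reference used for symbols has another build.

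In nearly all deposited rows the symbol and the 6 values (unit other, before cutting) run together. Where only 1 reading was possible it was taken if all its values were 0 or it gave whole fragments at one gene length (21182 rows). In the other 14221 rows restored, the reading also had to give whole fragments at one gene length. The reading with the smallest spread between libraries was tried first, and was kept where whole fragments by chance were very unlikely. Otherwise the best reading was kept where it had a margin of 2.5 powers of 10 over the next reading. Of 35434 rows, 35403 were restored, holding 99.7% of the fragments of each library, and 31 were left out. Of 1500 simulated rows, 1499 were restored exactly and 0 wrongly. These were built from restored rows with the same model of whole fragments, so the check does not measure the error in the real rows. Genes tested had a median of 1394 fragments.

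The test was limma 3.58.1 (lmFit, eBayes with a trend) in R 4.3.3 on log2(FPKM + 1), two-sided, for genes averaging 1 FPKM or more, with Benjamini-Hochberg adjustment. The fit was tested on simulated data with planted fold changes larger than that of any member in the 6 libraries. That run does not show the power at the sizes seen here. The alternatives were other pseudocounts, filters and scalings, a prior without a trend, a replicate block, voom on recovered fragments, and leaving out each library. Python 3.11.15, NumPy 2.4.6, pandas 2.3.3, SciPy 1.17.1 and Matplotlib 3.10.9 were used. Libraries of one group differed by more than counting error, since the chi-square per gene of each pair was 3.40 to 8.56. This cannot tell separate cultures from repeated libraries of one culture. Named were all members, the genes of each list with an adjusted p under 0.05 and the 3 with the largest moderated statistic, and the 5 genes most like Marco. Members, lists and rules were chosen with earlier results of these data known.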

Additional observations from a re-analysis of the deposited data

How the results depend on the processing

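The 10 members kept their direction and their side of the adjusted threshold in 134 of 139 alternative values. Msr1 turned to -0.0016 after centring on the median, -0.0044 after quantile normalization and -0.0131 without Ctrl replicate 1, and lay between -0.0131 and 0.0309 when each library was left out. Colec12 turned to 0.0106 without Ctrl replicate 1 and lay between -0.1183 and 0.0106. Centring moved the median of all genes by -0.01. At a mean FPKM of at least 5 Marco was not tested, which left 1 member at an unadjusted p under 0.05 in place of 2. Leaving out each library in turn gave 2 to 4 such members, with 4 without ZA replicate 1, and 0 members at an adjusted p under 0.05. The genes called among all tested were 36, against 1 without a filter, 20 after quantile normalization, 1 with a variance prior without a trend, 132 with voom on recovered fragments, and 0 to 25 when each library was left out. Without ZA replicate 2, where 0 were called by limma, 973 had an unadjusted p under 0.05. Marco lay between 0.43 and 0.67 when each library was left out, with adjusted p from 0.0646 to 0.440. The ratio of Marco to Msr1 was 0.72 to 1.14 higher in ZA when each library was left out and 0.50 higher as a ratio of FPKM + 1. The cause of these changes was not tested.

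The replicate numbers were also used as a block, although the labels give only a number. Across genes, the deviations from the group mean correlated at 0.284, 0.0393 and 0.280 for libraries of number 1, 2 and 3, and each Ctrl library correlated best with the ZA library of its own number (for Ctrl 2 by 0.0393 against 0.0334 with ZA 3, nearly equal), a hint from the data and not the design. With the replicate block 78 genes were called, among them 1 member, Marco (log2 difference 0.51, adjusted p = 0.0431 from limma), and the Marco to Msr1 ratio was 0.87 higher (exact sign flips, p = 0.25, the smallest that 3 pairs can give). The block changed no other member's call. Marco had the fewest fragments of the members, with 71 in its lowest library against at least 2605 for each other member. The spread of its Ctrl libraries was larger than counting error.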
